A study of Oryza sativa with 4 samples.

Results

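Heat shock transcription factors (Hsfs) were examined in rice flag leaf blades through 10 loci, taken by identifier from the 35667 rows of the deposited gene table, and all 10 were found. Hsfs bind heat shock elements, short repeats in the promoters of genes for chaperones and other protective proteins, and plants hold an unusually large family of them. Class A members carry activation motifs and switch genes on. Most class B members lack these motifs and act as repressors or as partners of class A, and class C members also lack them. In unstressed cells, chaperones of the HSP70 and HSP90 families hold class A Hsfs inactive, and the small heat shock proteins are among the best known targets once Hsfs are released. The 10 loci are HsfA1 (OS03G0854500), HsfA2a (OS03G0745000), HsfA2c (OS10G0419300), HsfA2d (OS03G0161900), HsfA2e (OS03G0795900), HsfA4b (OS01G0749300), HsfA4d (OS05G0530400, also named SPL7), HsfB2b (OS08G0546800), HsfB2c (OS09G0526600) and HsfC1b (OS01G0733200). The digits before the G in each identifier give the chromosome, so that 4 of the 10, HsfA1, HsfA2a, HsfA2d and HsfA2e, lie on chromosome 3.

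The wild type, labelled WT and TC65, was compared with d1, which carries the allele d1-1 of RGA1 (the gene of the heterotrimeric G protein's alpha subunit), with 2 libraries per genotype and 4 in all. Plants of both genotypes stood in a greenhouse that averaged 30 °C by day with midday peaks of 35 °C and 25 °C at night, and the labels give their age as 2 months in one place and their time of growth as 100 days in another. Light lasted 16 h and dark 8 h for both genotypes, with light given as 500 µmol per square metre and second. The labels name TC65 for the wild type only, and they give no hour of sampling. No heat treatment is named, so every value below is a level in leaves grown under these conditions. The libraries are labelled biological replicates, but whether each came from a separate plant is not stated. The p-values therefore rest on these libraries only, whose spread may be technical, and how the authors' test modelled that spread is not given.

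Each locus has 1 value per genotype, in FPKM (fragments scaled by transcript length and by the number of mapped fragments), since the authors combined the libraries before deposit. No value per library and no SD can therefore be given, and all p- and q-values are those of the authors' deposited Cuffdiff comparison. A locus was called if its q was under 0.05. Of 23672 tested loci, 19.3% were called, 7.24% higher and 12.1% lower in d1. The locus of RGA1 stood at 20.7 FPKM in WT against 17.3 in d1 (the authors' deposited table gives q = 0.296), a value over the whole locus that does not show the lesion. Loci entered as rubisco small subunits and a light-harvesting protein, markers of green leaf, were all 4 abundant, summing to 38934 FPKM in WT against 75974 in d1. Of these, 2 were called higher, and the other 2, which held most of the WT sum, did not pass. The 3 loci entered as secondary wall cellulose synthases, markers of xylem and fibre cells, summed to 12.95 FPKM in WT against 4.17 in d1. All 3 were called lower, with Cuffdiff q-values of 0.000186, 0.0291 and 0.0215. A Benjamini-Hochberg adjustment recomputed over all tested loci gave 0.000882, 0.0743 and 0.0573. The part of either difference in the Hsf values was not tested, and in such bulk samples fewer cells of a type and less RNA per cell cannot be told apart.

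Of the 10 Hsf loci, HsfA2d rose and HsfA4d fell in d1, and 7 others did not pass the test. HsfA2a was listed at 0 in both genotypes and was not tested. The 2 calls among 9 tested Hsf loci (22.2%) stand beside the 19.3% of all tested loci. Both calls also held under 4 other rules: a q under 0.01 (12.0% of tested loci called), a q under 0.05 with at least 2-fold (8.98%), a recomputed Benjamini-Hochberg adjustment (14.3%), and a minimum of 1 FPKM in either genotype (20.7%). These rules rest on the same deposited values and give no independent support. For each of the 2 calls the recomputed adjustment gave 0.000882, against a deposited Cuffdiff q of 0.000186. The deposited q is thus less strict than an adjustment over the tested loci alone, and how it was adjusted is not given. The median log2 ratio (d1 over WT) of the 9 was -0.03, beside -0.02 over all tested loci. With both FPKM sums set equal, every log2 ratio falls by 0.27 and the Hsf median becomes -0.30.

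HsfA2d, a class A2 factor that belongs to the heat-inducible branch of the family and is known for heat-dependent splicing in rice, rose 2.09-fold. It stood at 49.7 FPKM in WT against 104 in d1, so that the log2 ratio was 1.07. In the authors' deposited table its p was 5e-05 and its q 0.000186. It was the most abundant of the 10 loci in either genotype. Its level in WT exceeded that of 87.7% of tested loci, and its level in d1 exceeded that of 94.1%. Among the 2791 tested loci whose mean level lay within 2-fold of that of HsfA2d, 61 (2.19%) had a log2 ratio as high or higher, and 26.8% were called in some direction. With both FPKM sums set equal its log2 ratio is 0.80, which is less than a 2-fold change in the same direction. The p-value is the smallest in the authors' deposited table and is shared by 1342 loci.

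HsfA4d fell in d1. This factor is the product of SPL7, the rice locus at which a mutation gives the spotted leaf phenotype of lesions that form without a pathogen. It stood at 4.84 FPKM in WT against 1.45 in d1, 3.34-fold lower (log2 ratio -1.74). In the authors' deposited table its p was 5e-05 and its q 0.000186. In WT its level exceeded that of 39.3% of tested loci, and in d1 that of 20.5%. Among the 6068 tested loci whose mean level lay within 2-fold of its own, 242 (3.99%) had a log2 ratio as low or lower. If every one of the 40000000 reads stated per library had mapped, these levels would rest on at most 194 reads per kilobase and library in WT and 57.9 in d1.

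**Figure D1:**
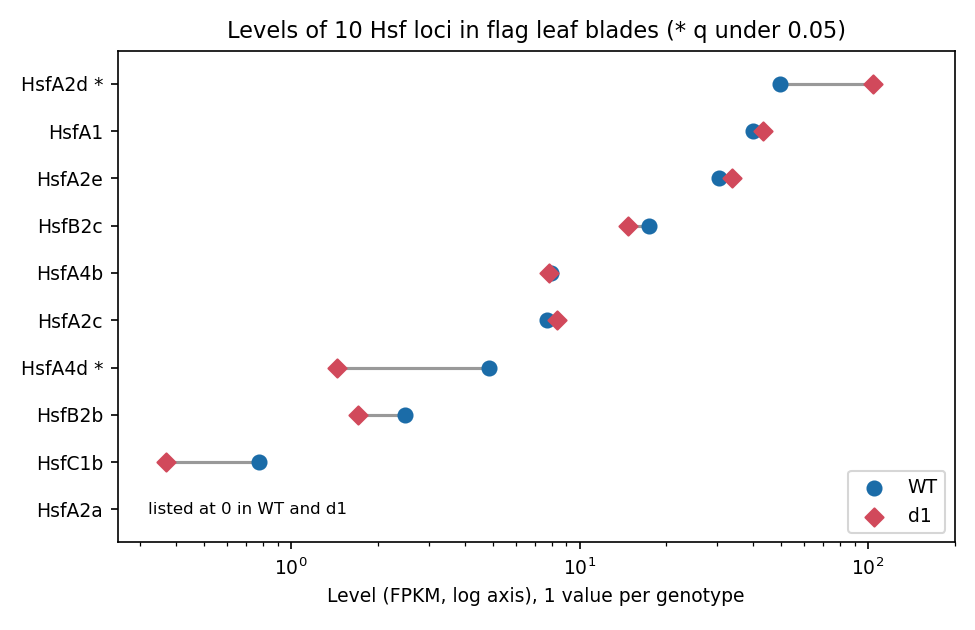
Level of each of the 10 Hsf loci in WT (circles) and d1 (diamonds), in FPKM on a log axis, with 1 value per genotype and no error bars because the libraries were combined before deposit. HsfA2d lies at 49.7 FPKM in WT against 104 in d1, HsfA4d at 4.84 and 1.45 FPKM, and HsfA2a is listed at 0 in both.

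The other tested class A members lay close to the same level in both genotypes. HsfA1, related to the tomato factor that acts as the master activator of the heat response, stood at 39.8 FPKM in WT against 43.3 in d1 (log2 ratio 0.12, by the authors' deposited table q = 0.646). HsfA2e, which raises heat and salt tolerance when expressed in Arabidopsis, stood at 30.4 and 33.7 FPKM (log2 ratio 0.15, by the authors' deposited table q = 0.566). HsfA2c, a class A2 factor known to bind the promoter of a ClpB-type chaperone gene in rice, stood at 7.70 and 8.35 FPKM (log2 ratio 0.12, by the authors' deposited table q = 0.746). These 3 values are the nearest to each other in log2 ratio among the 9 tested loci. They lie just above 0 as deposited and, centred on the median of tested loci, at 0.14, 0.17 and 0.13. They lie below 0, at -0.15, -0.12 and -0.15, with both FPKM sums set equal, a shift that is the same for every locus. HsfA4b, of the same class as HsfA4d, stood at 7.98 FPKM in WT against 7.81 in d1 (log2 ratio -0.03, by the authors' deposited table q = 0.928).

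Within the A2 group, HsfA2d stood at 1.63 times the level of HsfA2e in WT and at 3.09 times in d1. It stood at 6.45 times the level of HsfA2c in WT and at 12.5 times in d1. Within class A4, HsfA4b stood at 1.65 times the level of HsfA4d in WT and at 5.39 times in d1. Ratios between loci of 1 genotype do not depend on how the genotypes were scaled. Whether HsfA2d and HsfA2e, or HsfA4d and HsfA4b, differ in their change could not be tested without values per library.

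Among the 10 loci, the class B and class C members had log2 ratios below 0, and none of the 3 passed the test (unadjusted p from 0.168 to 0.331 in the authors' deposited table). With the further Hsf loci described below included, 1 of 4 tested in class B and 1 of 3 tested in class C lay above 0. HsfB2b, known in rice as a negative regulator of drought and salt tolerance, stood at 2.48 FPKM in WT against 1.70 in d1, a log2 ratio of -0.54 (the authors' deposited table gives q = 0.277). HsfB2c, of the same subclass, stood at 17.3 and 14.7 FPKM, a log2 ratio of -0.24 (the authors' deposited table gives q = 0.462). HsfB2c stood at 7.0 times the level of HsfB2b in WT and at 8.62 times in d1. HsfC1b, known for a part in salt tolerance and growth in rice, stood at 0.776 FPKM in WT against 0.368 in d1. Its log2 ratio was -1.08, or -0.38 with 1 FPKM added to both genotypes, and the test did not pass (the authors' deposited table has p = 0.188, q = 0.303). In a split of the tested loci into 10 equal groups by mean level, HsfC1b lay in the lowest group, where 10.7% were called, and HsfA2d in the highest, where 33.8% were called. At most 31.1 reads per kilobase and library in WT and 14.7 in d1 would stand behind the HsfC1b values. Whether this low depth kept the difference from passing was not tested.

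**Figure D2:**
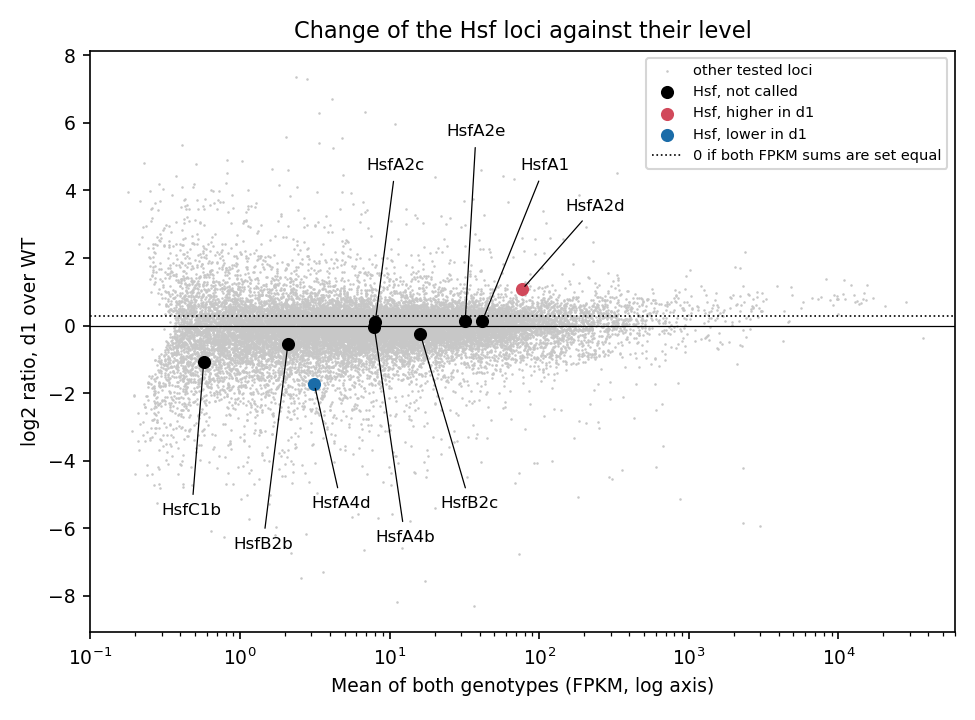
Log2 ratio (d1 over WT) of each tested locus with a value above 0 in both genotypes, against the mean of both genotypes in FPKM on a log axis. Grey points are the other loci, black points the 7 Hsf loci that did not pass, the red point HsfA2d at 1.07 and the blue point HsfA4d at -1.74, and the dotted line at 0.27 marks where 0 would lie with both FPKM sums set equal.

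The order of the levels was nearly alike in the genotypes. In both, HsfA2d was followed by HsfA1, HsfA2e and HsfB2c, and HsfC1b came last of the loci above 0. HsfA4b and HsfA2c changed places, from 7.98 and 7.70 FPKM in WT to 7.81 and 8.35 in d1. HsfA4d stood above HsfB2b in WT, at 4.84 against 2.48 FPKM, and below it in d1, at 1.45 against 1.70 FPKM. Without values per library, it cannot be said which neighbours in this order differ beyond their spread.

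The 10 loci summed to 161 FPKM in WT against 215 in d1. HsfA2d made up 30.9% of this sum in WT and 48.3% in d1. HsfA1 made up 24.7% and 20.1%, and HsfA2e 18.9% and 15.6%. HsfA4d made up 3.01% in WT and 0.672% in d1. The 7 tested loci that were not called summed to 106 FPKM in WT against 110 in d1, so HsfA2d carried most of the difference between the sums. These shares do not depend on how the genotypes were scaled, whereas the sums do. By class, the 7 class A loci summed to 140 FPKM in WT against 199 in d1, and the 2 class B loci to 19.8 and 16.4 FPKM.

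**Figure D3:**
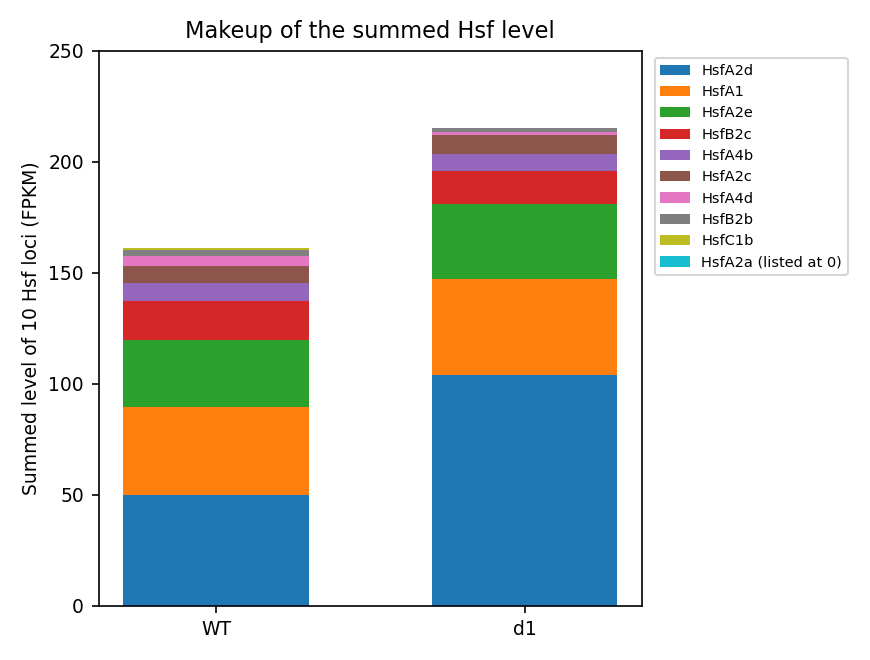
Summed level of the 10 Hsf loci in FPKM, stacked by locus, with 1 bar per genotype and no error bars because there is 1 value per genotype. The sum is 161 FPKM in WT against 215 in d1, and the HsfA2d segment grows from 49.7 to 104 FPKM.

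A further 13 loci of the family were read from a list entered by identifier from general knowledge. Of these, 9 had been tested, and 1 was called, the locus entered as HsfA2b, which fell from 1.08 to 0.489 FPKM (log2 ratio -1.14, by the authors' deposited table q = 0.0399). The call was lost with the Benjamini-Hochberg adjustment recomputed over all tested rows, which gave 0.0960. The most abundant of the 13 by the mean of both genotypes, the locus entered as HsfA9, stood at 14.0 FPKM in WT against 13.6 in d1. In d1 the locus entered as HsfA3 stood higher, at 15.0 FPKM against 11.5 in WT, without being called (the authors' deposited table gives q = 0.127). The locus entered as HsfB1, named here after its values were seen, stood at 2.30 FPKM in WT against 0.435 in d1. Its log2 ratio of -2.40 was the lowest of the 18 tested Hsf loci but did not pass (the authors' deposited table has p = 0.0360, q = 0.0765). Of the 9 tested among the 13 further loci, 4 had a log2 ratio above 0 and 5 below. The highest, likewise named after their values were seen, were the loci entered as HsfC1a at 0.49 and HsfB2a at 0.47, neither called. Over the whole set of 23 loci, 18 had been tested and 3 were called (16.7%), beside 19.3% of all tested loci, 1 higher and 2 lower, with a median log2 ratio of -0.04. All 3 calls lay in class A, where 11 loci had been tested, against 4 tested in class B and 3 in class C, and the difference between classes was not tested.

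Chaperone loci were read from lists entered in the same way, because they are the best known targets and restraints of Hsfs. Of 10 loci entered as small heat shock proteins or as a ClpB-type chaperone, which rescues aggregated proteins, 8 had been tested. Cuffdiff called none of the 8, beside 19.3% of all tested loci, and none had an unadjusted p under 0.05. Their log2 ratios ran from -0.93 to 0.04, with 1 of 8 above 0, beside 48.5% of all tested loci, and a median of -0.44, beside -0.02. The most abundant, OS03G0266300, stood at 24.2 FPKM in WT against 21.1 in d1, and the ClpB-type locus stood at 8.68 and 6.88 FPKM. Small heat shock protein genes are alike in sequence, and how the counting divided reads between near-identical copies is not given, so the values of single loci are uncertain.

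Of 12 loci entered as HSP70 and HSP90 chaperones, 1 was not analysed here and 1 was not tested. The other 10 loci, on 11 rows, gave 4 calls, all lower in d1. This is 36.4% of the rows, beside 12.1% of all tested loci called lower, and their median log2 ratio was -0.31, beside -0.02. The rows were abundant, with a median of 60.2 FPKM in WT, beside 7.80 over all tested loci. In the highest of the 10 groups by mean level, 33.8% of loci were called in either direction, and the 12.1% does not allow for level. The called rows lay in groups 3 (1 row of OS09G0482400), 6 (OS01G0840100), 9 (OS02G0115900, BiP) and 10 (OS06G0716700, an HSP90), counted from the lowest. Among tested loci within 2-fold of their mean levels, 18.9%, 18.6%, 22.2% and 28.4%, in that order, were called in either direction. The locus entered as BiP, the HSP70 of the endoplasmic reticulum, fell from 60.2 to 35.4 FPKM (the authors' deposited table gives q = 0.00219). The locus entered as the HSP90 of the same compartment fell from 113 to 78.2 FPKM (the authors' deposited table gives q = 0.0287). Both act in the folding of secreted proteins, and neither is a cytosolic chaperone of the kind that restrains Hsfs. Of 4 loci entered as HSP70 proteins with no compartment given, 1 fell, OS01G0840100, from 12.6 to 8.49 FPKM (the authors' deposited table gives q = 0.0249). The other 3 did not pass, among them the abundant OS11G0703900, at 299 FPKM in WT against 327 in d1, and OS03G0276500, at 87.3 against 89.6. The 2 loci entered as chloroplast HSP70 were abundant, at 499 and 147 FPKM in WT against 425 and 118 in d1, and did not pass. The fourth call was 1 of 2 rows of a cytosolic HSP90 locus, OS09G0482400, from 3.51 to 1.93 FPKM (the authors' deposited table gives q = 0.00915). Its other row stood at 3.75 and 3.58 FPKM without passing, and the rows cannot be told apart by name. The most abundant cytosolic HSP90 locus, OS08G0500700, stood at 32.4 FPKM in WT against 25.8 in d1 and did not pass (the authors' deposited table gives q = 0.142). With the recomputed adjustment, the calls of the BiP locus and of OS09G0482400 remained and the other 2 were lost.

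Loci entered as partners of the Hsf pathway were 2 Hsf-binding proteins that damp class A factors, 2 DREB2 factors that act upstream of some Hsfs, and 2 FKBP co-chaperones. All 6 had been tested, Cuffdiff called none, beside 19.3% of all tested loci, and none had an unadjusted p under 0.05. Their log2 ratios ran from -0.30 to 0.15 with a median of -0.09, beside -0.02 over all tested loci. The most abundant, an FKBP locus, stood at 92.0 FPKM in WT against 74.7 in d1.

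**Figure D4:**
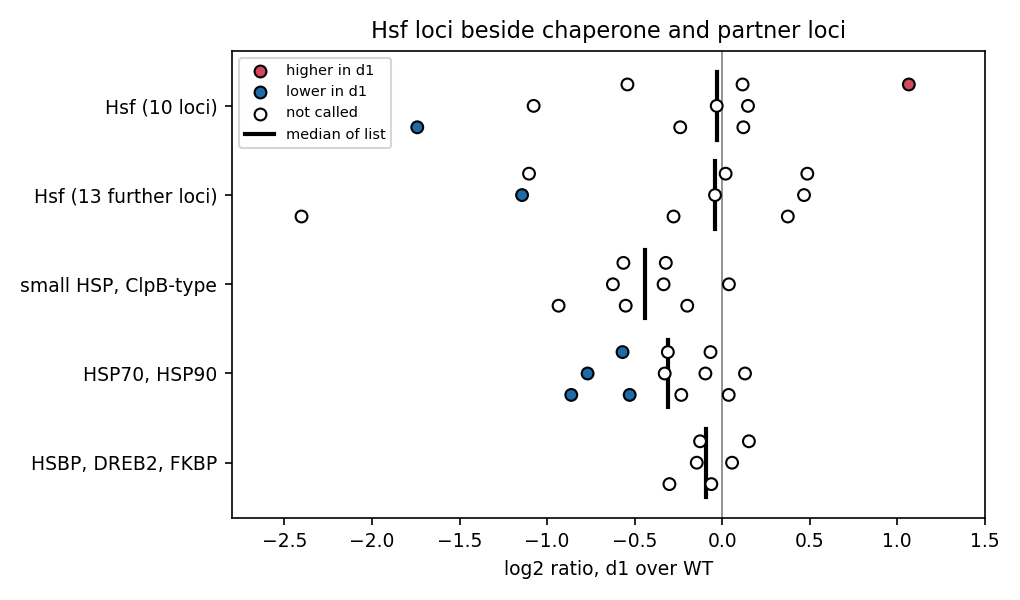
Log2 ratio (d1 over WT) of each tested locus in the 10 Hsf loci, the 13 further Hsf loci and the 3 lists of chaperones and partners, with the median of each list as a vertical bar and called loci filled. HsfA2d at 1.07 is the one red point in the plot, and the HSP70 and HSP90 list holds 4 blue points between -0.86 and -0.53.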

How the data were processed

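RNA-seq libraries of flag leaf blades, 2 per genotype, were sequenced at about 40000000 single-end reads of 150 bp each, per the labels. The submitters' processing notes name Cuffdiff, Cufflinks, TopHat2, Trimmomatic and FastQC and the build IRGSP-1.0; versions, parameters and strand setting were not given in the sources used here. Deposited by the authors were 1 FPKM value per genotype and, for each tested locus, a p-value, a q-value and a test statistic, which is a signed score. Neither mapped reads nor transcript lengths are given, so depth behind a value is known only as an upper limit, and no interval for counting error can be given.

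Log2 ratios (d1 over WT) were computed from the deposited FPKM values with no pseudocount, using Python 3.11.15 and pandas 2.3.3. Benjamini-Hochberg adjustment was recomputed over the 23672 tested rows, and that step was tested on simulated data. The planned fits per library could not be run, since the libraries had been combined. Alternatives were a q under 0.01, a minimum of 2-fold, the recomputed adjustment, a minimum of 1 FPKM, 2 scalings and 2 pseudocounts.

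The Hsf loci and lists were chosen with earlier results of these data known. All 10 Hsf loci are named. Of the other lists, each called locus is named and, where fewer than 4 were called, the most abundant by mean level. Further loci of these lists were named after their values were seen. None of the identifiers of the 10 Hsf loci matched the RefSeq gene table (ASM3414082v1) directly, and the identifiers of the other lists were not matched in this way. By name, all 23 Hsfs were found there, each on the chromosome and in the order along it that the identifiers give. HsfA2c, HsfA4d, HsfB2b and HsfB2a are each the only listed Hsf on their chromosome, so for them the order could not differ. The other identifiers were not checked against an annotation. No sequence is shown.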

Additional observations from a re-analysis of the deposited data

How the results depend on the processing

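No paired analysis was possible because the authors had combined the libraries of each genotype, and leaving out a library was equally impossible. The calls of HsfA2d and HsfA4d, 1 in each direction, held under a q of 0.01, a minimum of 2-fold, the recomputed adjustment (0.000882 for each) and a minimum of 1 FPKM. All of these rest on the same deposited values and are no independent support. The 1 lower call among the further Hsf loci became 0 with a q under 0.01 and 0 with the recomputed adjustment. The 4 lower calls among HSP70 and HSP90 loci became 2 with a q under 0.01, 2 with the recomputed adjustment and 0 with a minimum of 2-fold. Setting both FPKM sums equal lowers every log2 ratio alike by 0.27, which by construction puts the Hsf median at -0.30 in place of -0.03 and HsfA1 at -0.15, HsfA2c at -0.15 and HsfA2e at -0.12. Centring on the median of tested loci leaves these 3 above 0. Adding 1 FPKM to both genotypes, which cannot turn a sign, took HsfC1b from -1.08 to -0.38 and HsfA4d from -1.74 to -1.25, and HsfA2d to 1.05. The deposited q-values were not refitted under another scaling, so whether the calls depend on it is not known.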

Other observations

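The loci beside the Hsf loci were read from the order of the identifiers, a choice made after the values had been seen. Among the 5 nearest tested loci on each side of the 10 Hsf loci, 100 in all, 10 were called higher and 6 lower in d1, or 16.0%, beside 19.3% of all tested loci. Around HsfA4d, 0 of 10 neighbours were called in the authors' deposited Cuffdiff comparison, and the nearest on either side stood at 40.6 FPKM (before) and 38.02 FPKM (after) in WT, against 58.1 and 37.6 in d1. Around HsfA2d, 1 neighbour was called higher and 1 lower. The RefSeq gene that carries the symbol HSFA2D also lists ARD2, a symbol of acireductone dioxygenase, an enzyme of methionine recycling, among its synonyms, and the RefSeq gene of HsfA2c likewise lists ARD1. The locus just before HsfA2d, OS03G0161800, stood at 226 FPKM in WT against 204 in d1 (the authors' deposited table gives q = 0.578). It was more abundant than HsfA2d in either genotype and had a log2 ratio of -0.15, against 1.07 for HsfA2d. The nearest tested loci beside HsfA2c were less abundant than HsfA2c. OS10G0419250, before it, stood at 0.643 FPKM in WT against 1.41 in d1, and OS10G0419400, after it, at 1.32 against 0.545. Whether reads of neighbouring transcripts entered the HsfA2d or HsfA2c values was not tested.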
